A study of Mus musculus and Rattus norvegicus with 4 samples.

Results

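The MEF2A peaks of C2C12 cells that lay at the ends of protein-coding genes were described: 470 of 2797 peaks (16.8%, exact 95% interval 15.4 to 18.2%) in the deposited mouse list (mm10). A peak belonged to this set when its nearest edge was no more than 5 kb from the start or the end of a protein-coding gene in RefSeq (GRCm38.p6), inside or outside its span. The peaks were near 497 genes, which is 2.27% of 21887 protein-coding genes. Just inside the limit lay a peak 4982 bp from the end of Fhl3 (score 148.75), and just outside it a peak 5012 bp from an end of Gm52030 (score 78.46). Only position chose the peaks, and their scores were not used. The score is the authors' own value per peak, on a scale that is not stated, and the lowest in the list is 50.08. A peak with a higher score is called stronger here.

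C2C12 is an immortalised mouse myoblast line that fuses into myotubes when serum is withdrawn. MEF2A was mapped by ChIP-exo, in which an exonuclease trims the precipitated DNA towards the edges of the bound protein, in 1 library from C2C12 cells differentiated for 48 h in 2% horse serum. The series also held a normal rabbit IgG library from C2C12 cells and a MEF2A and an IgG library from primary rat cardiomyocytes, none of which was analysed here. With 1 library and no replicates, the values describe this peak list and no difference between conditions was tested. Read depth is unknown, and no expression values were used, so the myoblast label could not be checked against marker genes. The 48 h cultures were not split into myotubes and unfused cells in the labels.

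MEF2 proteins bind as dimers to an AT-rich element in the control regions of muscle genes, neural genes and immediate early genes. In muscle they work beside MyoD family factors, are held in check by class IIa histone deacetylases and are activated by kinases such as p38 MAP kinase. A gene span generally runs from a promoter to a polyadenylation site, though annotated start sites can also lie inside it. A peak at each end therefore has a different neighbourhood, though a factor bound at either may also act on other genes.

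Where a peak overlapped a promoter, the sequence could be read. RefSeq promoter windows, from 250 bases before to 50 bases after each annotated start site, were held for 17492 of the genes. Peaks of the set overlapped 61 of 21263 such windows (0.287%), which belonged to 57 genes and 55 peaks. The MEF2 consensus, 10 bases with a pyrimidine, TA, 4 bases of A or T, TA and a purine, was present in 10 of the 61 windows (16.4%, exact 95% interval 8.15 to 28.1%), against 583 of all 21263 windows (2.74%), on either strand. The 9 genes with the element are shown because they carry the sequence that MEF2 is known to bind. Each line runs 5′ to 3′ on the gene's strand, with every match to the consensus in capitals.
Jun: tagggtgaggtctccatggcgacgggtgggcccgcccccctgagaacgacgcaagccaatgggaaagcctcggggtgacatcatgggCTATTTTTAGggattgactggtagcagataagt
Atf3: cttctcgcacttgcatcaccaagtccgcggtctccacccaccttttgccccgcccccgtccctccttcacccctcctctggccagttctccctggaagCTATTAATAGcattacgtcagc
Ywhah: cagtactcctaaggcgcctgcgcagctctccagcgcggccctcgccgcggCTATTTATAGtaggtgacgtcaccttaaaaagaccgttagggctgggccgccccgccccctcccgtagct
Lrrc14b: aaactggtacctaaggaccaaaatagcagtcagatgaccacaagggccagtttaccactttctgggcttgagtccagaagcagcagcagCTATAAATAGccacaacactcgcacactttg
Il13ra2: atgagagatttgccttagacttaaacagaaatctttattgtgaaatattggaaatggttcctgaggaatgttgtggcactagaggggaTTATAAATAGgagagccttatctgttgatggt
Rhobtb1: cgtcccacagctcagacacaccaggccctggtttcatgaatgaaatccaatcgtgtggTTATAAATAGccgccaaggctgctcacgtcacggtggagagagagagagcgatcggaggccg
Arl4c: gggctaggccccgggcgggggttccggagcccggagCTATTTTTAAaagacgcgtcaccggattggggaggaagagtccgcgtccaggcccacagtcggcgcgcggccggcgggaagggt
Cp: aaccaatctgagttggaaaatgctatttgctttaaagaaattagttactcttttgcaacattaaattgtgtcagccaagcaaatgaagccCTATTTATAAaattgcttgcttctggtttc
Dzip1l: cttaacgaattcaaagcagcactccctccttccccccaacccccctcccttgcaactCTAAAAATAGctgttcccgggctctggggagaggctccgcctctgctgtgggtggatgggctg

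The stretches lie in GRCm38.p6 at chr4:95052223-95052342 (Jun), chr1:191183334-191183453 (Atf3), chr13:74364001-74364120 (Lrrc14b), chrX:147429193-147429312 (Il13ra2) and chr1:88702322-88702441 (Arl4c) on the minus strand. On the plus strand they lie at chr5:33018656-33018775 (Ywhah), chr10:69212969-69213088 (Rhobtb1), chr3:19957129-19957248 (Cp) and chr9:99629411-99629530 (Dzip1l). Positions are counted back from the start site, with -1 the base before it. In Jun, a subunit of the AP-1 factor, the element ran from -33 to -24 and lay inside a peak of score 577. In Atf3, a stress-induced factor of the ATF family, it ran from -22 to -13, inside a peak of score 286. Ywhah, which encodes a 14-3-3 protein, had it from -110 to -101 inside a peak of score 153.

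Lrrc14b held the element from -31 to -22 inside a peak of score 133. Rhobtb1, which encodes an atypical GTPase with BTB domains, had it from -167 to -158 and Arl4c, a small GTPase gene, from -214 to -205, inside peaks of score 78.3 and 76.6. The Rhobtb1 element belonged to a start site 62136 bp into its span, so this gene is not among the 497, and the peak was in the set through A930033H14Rik. For 3 genes the peak overlapped the window but did not contain the element: Il13ra2, a decoy receptor for interleukin 13 (score 100.2), Cp, which encodes the copper ferroxidase ceruloplasmin (score 64.3, at a start site 316 bp into the span), and Dzip1l, a ciliary gene (score 50.5). In 5 of the 9 genes the element began between 20 and 35 bases before the start site, where a TATA box would lie, and in 5 it overlapped the letters TATAAA on either strand, in Cp, Il13ra2, Lrrc14b, Rhobtb1 and Ywhah. The letters TATAAA were present in 14 of the 61 windows (23.0%), against 12.6% of all windows. A match in these letters is a description and does not show which protein was bound.

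Other motifs were searched on both strands in the same windows. TGACGTCA, the cyclic AMP response element, was present in 5 of 61 (8.20%, exact 95% interval 2.72 to 18.1%), against 2.23% of all windows. It lay inside the peak in Ywhah, Creb5 and Dusp8, and outside the peak in Osgepl1 and Ccnl1. GGAATG, bound by TEAD factors, was present in 13 (21.3%, 11.9 to 33.7%) against 13.6%. The letters TGANTCA, bound by AP-1, were present in 2 (3.28%, 0.400 to 11.3%) against 6.99%. CAGCTG, an E-box that MyoD binds, was present in 9 (14.8%) against 15.6%, and the CArG box of serum response factor in 1 (1.64%) against 1.52%. The intervals for these motifs other than the cyclic AMP response element included the share in all windows. The inner 8 bases of the MEF2 consensus alone, which also fit many TATA boxes, were present in 16 (26.2%, 15.8 to 39.1%) against 7.92%.

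**Figure D1:**
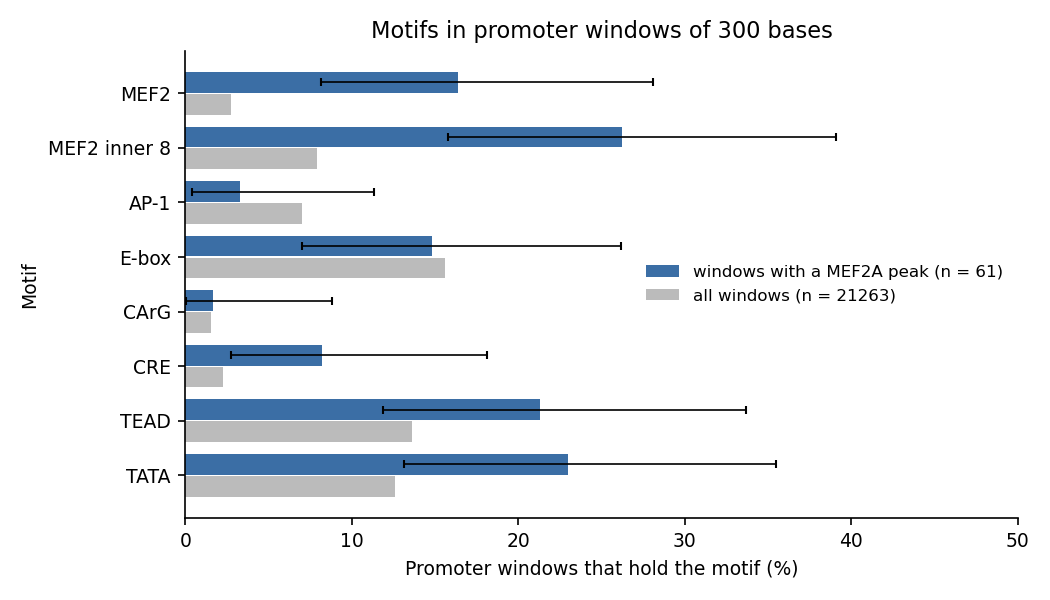
Share of promoter windows that hold each motif (x axis, percent) for the 61 windows that a MEF2A peak overlapped (blue, with exact 95% intervals) and for all 21263 windows (grey). The MEF2 consensus stood at 16.4% against 2.74%, and the E-box at 14.8% against 15.6%.

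The strongest peaks over muscle promoters had no full consensus in the window. Ankrd1 and Lmod2 are shown as the sarcomere-linked genes with the strongest peaks of this kind, and Dusp6 because the title of the series names it. Capitals in Ankrd1 mark GGAATG, and nothing is marked in the others.
Ankrd1: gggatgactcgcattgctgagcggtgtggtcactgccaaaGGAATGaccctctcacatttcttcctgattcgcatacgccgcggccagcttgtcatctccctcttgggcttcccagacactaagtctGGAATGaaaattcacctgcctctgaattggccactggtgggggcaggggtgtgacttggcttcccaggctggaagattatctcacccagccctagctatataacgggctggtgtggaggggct
Lmod2: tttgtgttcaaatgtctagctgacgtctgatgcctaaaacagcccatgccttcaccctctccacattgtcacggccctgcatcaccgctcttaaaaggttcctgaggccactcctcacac
Dusp6: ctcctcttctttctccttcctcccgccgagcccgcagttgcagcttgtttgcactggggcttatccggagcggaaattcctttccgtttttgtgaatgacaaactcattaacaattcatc

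They lie at chr19:36119845-36120094 (minus strand), chr6:24597651-24597770 (plus strand) and chr10:99263006-99263125 (plus strand). Ankrd1 carried GGAATG at -210 and -123, both inside a peak of 651 bp that also contained the start site. The window covers 300 bases, so elements farther out in these wide peaks were not searched.

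Distances to genes were taken from the outer ends of the span, which need not be the annotated start site of a promoter window: of the 61 windows, 31 had the start site at the span start and 4 had it more than 1 kb into the span. Strand was known for the gene nearest to 364 of the 470 peaks. Of these, 223 (61.3%, exact 95% interval 56.0 to 66.3%) were nearest to a gene start and 141 to a gene end. Windows around starts and ends have the same length, so the counts can be set side by side. Within 250 bp, 58 peaks were at a start and 13 at an end (81.7% at a start, interval 70.7 to 89.9%). Between 1 and 5 kb the counts were 122 at a start and 93 at an end (56.7%, interval 49.8 to 63.5%). The start itself lay inside the peak in 20 cases and the end in 3. In 18 of the 20 an annotated start site lay inside the peak too, the exceptions being Prkag3 and Ogt. The excess at starts therefore narrowed with distance, and beyond 1 kb the interval included equal shares.

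Peaks at starts fell about evenly on both sides, with the middle of the peak upstream of the gene in 112 and inside it in 111. Peaks at ends had their middle downstream of the gene in 83 and inside it in 58. The median distance was 1318 bp for peaks at a start and 1807 bp for peaks at an end. For the remaining 106 peaks the nearest gene had no strand in the tables used, 12 of them on chromosome 18, and these stood at a median of 1536 bp from the nearer end. Counted by gene, 257 of 17492 genes of known strand (1.47%) had a peak within 5 kb of the start and 199 (1.14%) within 5 kb of the end. Within 1 kb the counts were 108 (0.617%) for starts and 48 (0.274%) for ends.

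**Figure D2:**
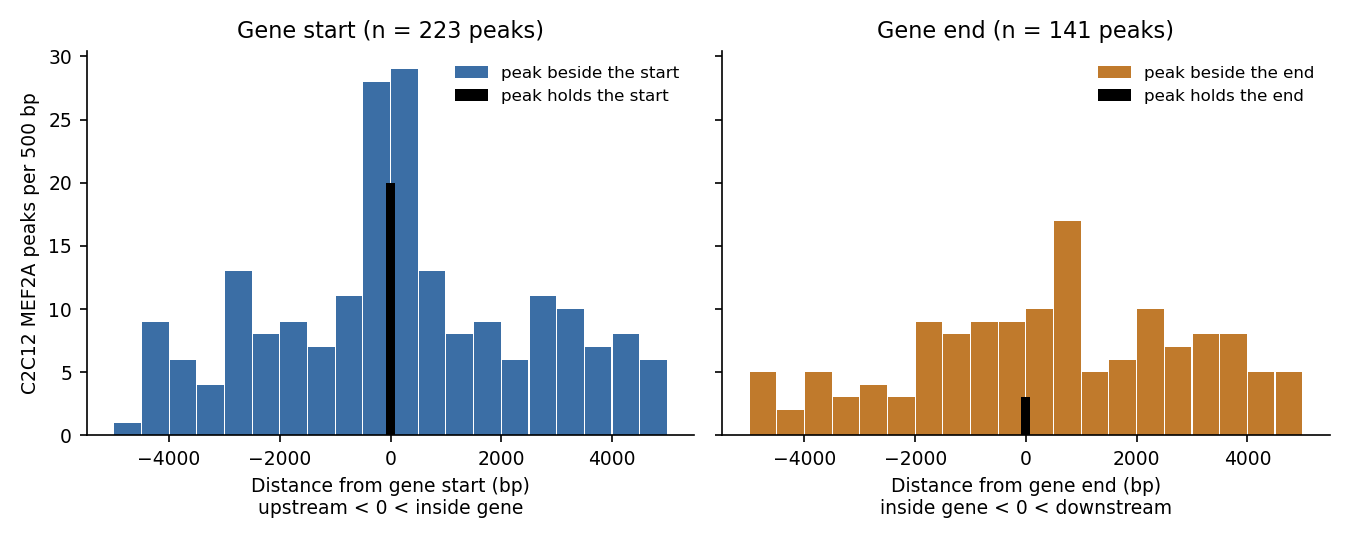
Number of peaks per 500 bp (y axis) by distance in bp from the nearest gene start (left, 223 peaks) or gene end (right, 141 peaks), with black bars for peaks that contain the start (20) or the end (3). Peaks beside starts were most frequent within 500 bp on either side, and those beside ends were spread more evenly.

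The strength of these peaks was close to that of the rest of the list. The median score was 80.5 (quartiles 60.6 and 148.7) for the 470 peaks at gene ends and 76.0 (quartiles 59.1 and 137.0) for the other 2327. Scores of 200 or more were held by 16.8% (exact 95% interval 13.5 to 20.5%) against 14.8% (13.4 to 16.3%). The median width was 152 bp against 144 bp. Peaks at starts and at ends had medians of 79.3 and 78.4, and other peaks inside genes and outside genes had 75.0 and 77.5. The interval of the median for peaks at gene ends (74.6 to 83.9) overlapped that for the others (74.1 to 79.1), so no difference is shown. Of the 100 highest-scoring C2C12 peaks, 21 were at gene ends (exact 95% interval 13.5 to 30.3%). This interval included the 16.8% that the set made up of all C2C12 peaks.

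Within the set, the 20 peaks that contained a gene start had a median score of 184.0, against 69.1 for the 38 peaks from 1 to 250 bp away from a start. The 3 that contained an end had a median of 57.2, and the 9 that contained an end of unknown strand 72.0, both below the 80.5 of the whole set. All 32 peaks that contained a start or an end had a median of 89.3, and its interval (57.2 to 374.6) included that of the whole set, so no difference in the median is shown. Of the 32, 14 (43.8%, exact 95% interval 26.4 to 62.3%) scored 200 or more, against 16.8% of the whole set, which includes them, and their median width was 185 bp. A wider peak is likelier to contain any given base, and the part that width played in this contrast was not tested.

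**Figure D3:**
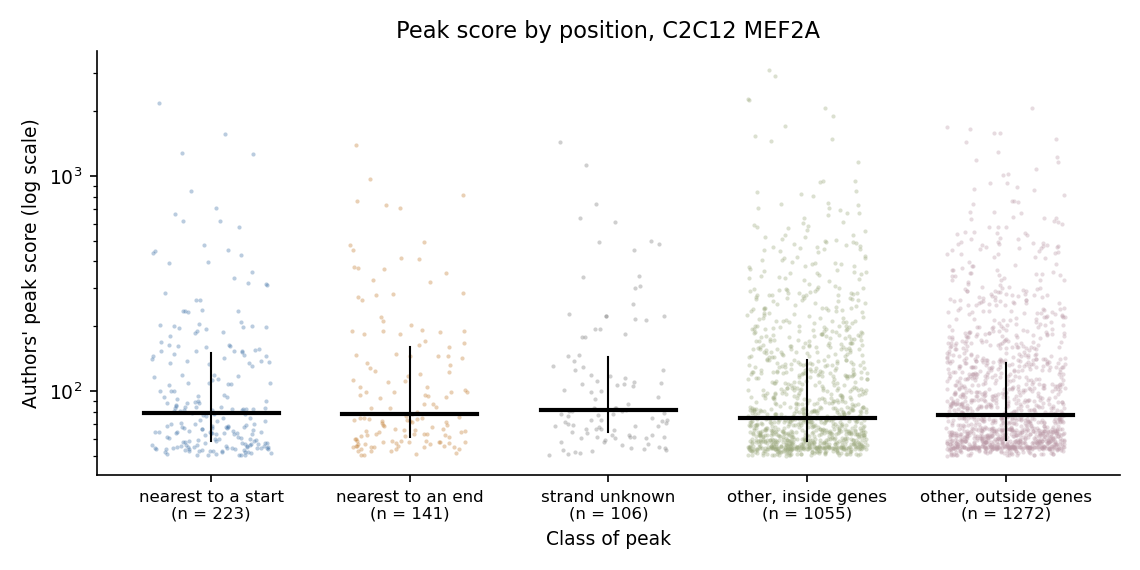
Authors' peak score (log axis) for each C2C12 MEF2A peak, nearest to a gene start (n = 223), to a gene end (n = 141), to a gene of unknown strand (n = 106), and for the other peaks inside (n = 1055) and outside genes (n = 1272). Thick bars are medians and thin bars quartiles, and the medians lie between 75.0 and 81.3.

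Structural muscle genes gave the highest shares among the 17 gene lists examined. Of 50 sarcomere and contractile genes 10 (20%, exact 95% interval 10.0 to 33.7%) had a peak within 5 kb of an end, and of 42 genes of the Z-disc, the muscle ankyrin repeat family and desmin 13 (31.0%, 17.6 to 47.1%) did, against 2.27% of all protein-coding genes. With peaks of score 100 or more, the shares were 14.0% and 21.4%, against 0.946%. The windows at the start and the end of a short gene overlap, so less sequence was searched for it than for a long gene. Gene length, expression and the intervals of single genes did not enter these counts. The lists were chosen with earlier results of these peaks known. No test of the lists was made.

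At the starts of muscle genes the strongest peak was that of Ankrd1, a titin-binding stress-response gene, at chr19:36119565-36120215 (score 1274.5). It ran from -371 to 279 bp relative to the start. Ankrd1 had a further peak 455 bp upstream (score 100.25), another 2541 bp into the gene (80.4) and a last one 688 bp beyond its end (62.0). Lmod2, which lengthens the actin thin filaments, had a peak over its start at chr6:24597470-24597896 (score 665). Palld, encoding the actin crosslinker palladin, and Cavin4, a muscle caveolar protein, also held their starts inside a peak (scores 396 and 359).

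Tpm2, a tropomyosin of the thin filament, had a peak 72 bp from the start (315), and Csrp3, the muscle LIM protein, one 4 bp from it (145.8). Ttn, the giant spring protein titin, had a peak 562 bp into its span (186.5), and Myh3, the embryonic myosin heavy chain, had one 681 bp upstream of the start (135.4) and another 2534 bp beyond the end (142.6). Flnc (136.4, at 2161 bp), Klhl41 (116.9, at 265 bp), Mylpf (82.5, at 1558 bp), Synpo2l (66.8, at 4377 bp), Myoz2 (63.7, at 942 bp) and Hspb1 (52.4, start inside the peak) also had a peak within 5 kb of their starts, as did Myom1 (234.5, at 3736 bp). The Myom1 peak was nearer to the start of Myl12a, a non-sarcomeric myosin light chain gene.

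At ends, Hspb7, a small heat shock protein of the sarcomere, had 3 peaks between 404 and 941 bp downstream, with scores of 74.3, 492 and 93.2. Fhl3 (148.75) and Pdlim3 (66.2, at 1852 bp), both LIM domain genes, had a weaker peak each at the end. For some of the best-known genes the strand was missing. Lmod3, a relative of Lmod2, had a peak 171 bp from an end of its span (609), and Xirp1, which marks the intercalated disc and the myotendinous junction, had peaks at 522 and 1975 bp (215.5 and 105.2). Of the fast troponin genes, Tnni2 had a peak at 149 bp (80.7), and Tnnt3 had peaks at 36 bp (68.5) and 955 bp (76.7). A peak of score 306 lay 339 bp from Hspb2 and 3679 bp from Cryab, another pair of neighbouring chaperone genes expressed in muscle.

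**Figure D4:**
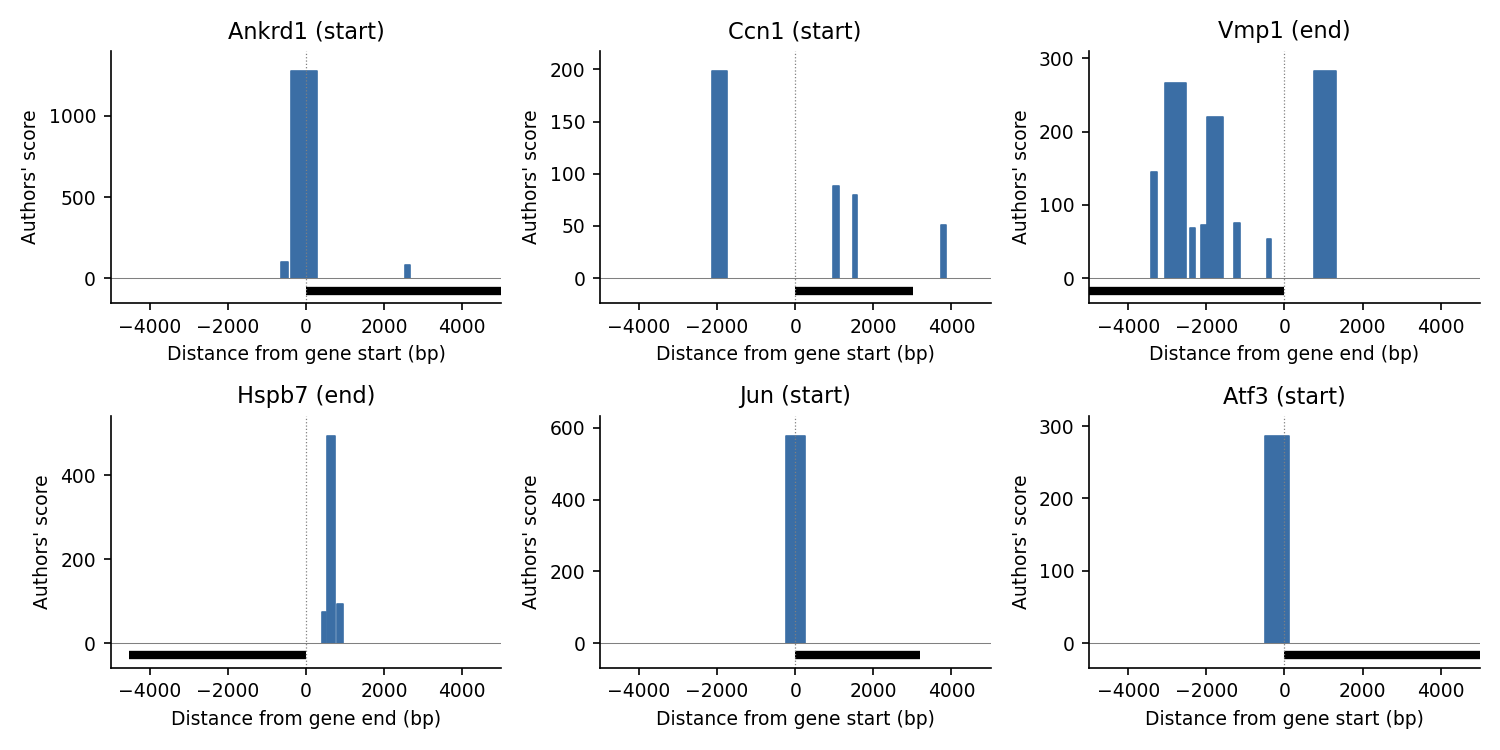
Peaks around 4 gene starts (Ankrd1, Ccn1, Jun and Atf3) and 2 gene ends (Vmp1 and Hspb7), by distance in bp (x axis) and authors' score (y axis, each panel on its own scale); the black bar is the gene span. Ankrd1, Jun and Atf3 each have a peak across the start, and Vmp1 has a run of 8 peaks around its end.

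Actin regulators outside the sarcomere also had peaks at their ends. Of 54 genes of the actin cytoskeleton and the small GTPases that steer it, 9 (16.7%, exact 95% interval 7.92 to 29.3%) had a peak at an end. The share over all protein-coding genes was 2.27%. With peaks of score 100 or more, the count was 2 (3.7%), against 0.946%. Cfl2, the muscle cofilin that severs actin filaments, had a peak 713 bp from its end, inside the gene (score 376), and a weaker one 745 bp from its start (63.7). Myl12a had a peak 2937 bp from its start (234.5) and another 10 bp from its end (96.1), which was also 3044 bp from the start of Myl12b. The start of Rhoa lay inside a peak of score 56.4 that also held the opposite start of Tcta. Cald1, Cdc42ep3, Pfn1, Arhgap29 and Flna had peaks of 53.2 to 77.2. The Pfn1 peak lay 4397 bp from its end and was nearer to the start of Slc25a11 (84 bp). Capza2, Mtpn and Daam1 were not in this list. Capza2, an actin capping subunit, had a peak 921 bp past its end (479). Mtpn, encoding an inhibitor of that capping protein, had one 2638 bp before its start (452), and Daam1, a formin, one 4911 bp from its end (416).

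Among costamere and adhesion genes 4 of 49 (8.16%, 2.27 to 19.6%) had a peak, with an interval that reached the 2.27% of all genes. They were Tln1, the integrin activator talin (138.0 and 88.4), Itga7, the laminin receptor of muscle (119), Sorbs2 (73.0) and Itga5 (65.2). Extracellular matrix and CCN genes gave 9 of 51 (17.6%, 8.40 to 30.9%), against 2.27% of all genes. With peaks of score 100 or more, the count was 4 (7.84%), against 0.946%. Ccn1, a matricellular growth regulator, had a peak 1749 bp upstream of its start (198), 2 inside the gene (88.1 and 79.6) and one past its end (51.0). Its relatives Ccn4 and Ccn2 had 4 peaks (57.9 to 129) and 1 peak (107.3). Adamts5 (110.3), Thbs1 (77.8, at 11 bp), Col3a1 (66.5, at 48 bp, and 56.2), Tnc (61.7 and 53.9), Adamts1 (54.7) and Col1a1 (54.3) were the rest.

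Immediate early genes gave 5 of 46 (10.9%, 3.62 to 23.6%), against 2.27% of all genes. With peaks of score 100 or more, the count was 3 (6.52%), against 0.946%. Jun and Atf3, with the elements printed above, each had a peak across the start, at chr4:95051977-95052470 and chr1:191183206-191183838. Btg2, an antiproliferative gene, had a peak 3653 bp upstream (615). Klf6 and Fosb had weaker peaks near their ends (74.2 at 1135 bp and 71.8 at 1347 bp). Further transcription regulators at starts were Creb5, a CRE-binding factor whose start lay inside a peak (437), Klf7, a zinc finger factor (448, at 244 bp), and Aebp2, a partner of Polycomb repressive complex 2 (479, at 410 bp).

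MAP kinases and their phosphatases gave 6 of 53 (11.3%, 4.27 to 23.0%), against 2.27% of all genes. None had a peak with a score of 100 or more, and the share over all protein-coding genes was itself only 0.946%. The phosphatases were Dusp8 (93.4, at 468 bp from the span start), Dusp5 (73.3, at 1856 bp from the end) and Dusp6 (68.2, at 97 bp from the start). An annotated start site of Dusp8, 623 bp into its span, lay inside the Dusp8 peak. Mapk12 and Mapk11, neighbouring p38 genes, shared a peak of 54.95, and Spry2, an inhibitor of receptor signalling, had one of 54.1. Among energy genes 3 of 46 (6.52%, 1.37 to 17.9%) had a peak, and the interval included the 2.27% of all genes. The start of the span of Prkag3, which encodes the muscle-restricted gamma subunit of AMP-activated kinase, lay inside a peak at chr1:74749192-74749771 (848), whose edge was 237 bp from the annotated start site, and Lpl and Gapdh had peaks of 70.2 and 50.5.

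Regulators of muscle identity had peaks at gene ends in shares that cannot be told from the 2.27% of all genes. Of 56 myogenic regulators and fusion genes 3 (5.36%, 1.12 to 14.9%) had a peak, Rbm24 (90.2), Eya4 (68.2) and Tead3 (53.4). The Tead3 peak was nearer to the start of Rpl10a (315 bp) than to the end of Tead3 (3515 bp). It was also counted among the ribosomal protein genes below. Of 42 MEF2 genes and cofactors 1 (2.38%, 0.0603 to 12.6%) did, Sik2 (95.5), a kinase that phosphorylates class IIa histone deacetylases. Both intervals included the 2.27% of all genes. Secreted factors and receptors gave 3 of 58 (5.17%, 1.08 to 14.4%), and the interval included the 2.27% of all genes. They were Fgf10, a mesenchymal growth factor, with a peak 2672 bp from its end (711), Ephb2 (63.4) and Tgfb2 (54.4). No calcium handling gene of 40 had a peak, for which the exact 95% interval reaches 8.81% and so includes the 2.27% of all genes. Ribosomal protein genes, active in all cells, gave 3 of 44 (6.82%, 1.43 to 18.7%), and this interval also included the 2.27% of all genes. The ribosomal protein genes Rps29 (108.6, at 591 bp from an end of its span) and Rpl10 (59.95, at 14 bp from the start) were not in this list and had peaks too.

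Lists for other cell types had at most 1 gene with a peak. Endothelial (0 of 20), leukocyte (0 of 20) and hepatocyte genes (0 of 21) had no peak at a gene end, with exact 95% upper bounds of 16.8, 16.8 and 16.1%. Among neuronal genes only Syn2, of 22, had one, 1543 bp past its end (410). At these sizes the counts cannot be told from the 2.27% of all genes. The counts also depend on which genes were listed. The myeloid receptor gene Cd300lb (1259), the chemokine gene Xcl1 (329) and the ceruloplasmin gene Cp (337), outside these lists, had peaks.

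**Figure D5:**
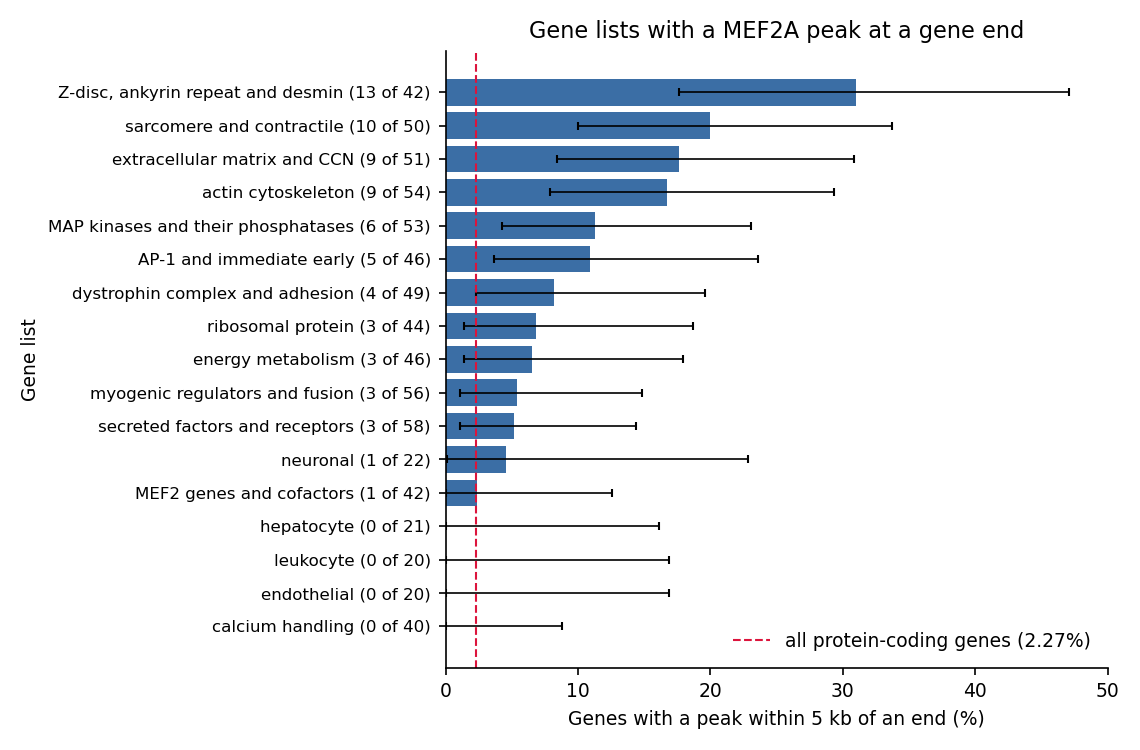
Percent of genes in each list with a MEF2A peak within 5 kb of an end (x axis), with exact 95% intervals for counting error only, and the 2.27% of all protein-coding genes as a dashed line. Z-disc genes stood at 31.0% and calcium handling genes at 0 of 40.

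Many of the strongest peaks at starts belonged to genes outside these lists. Dot1l, a histone H3 methyltransferase gene, had the highest score of the set (2172), in a peak at chr10:80751293-80752075, 3026 bp upstream of its start. Calhm5, of the calcium homeostasis modulator channel family, held its start inside a peak at chr10:34096277-34096785 (1559). Cd300lb, a myeloid receptor gene (1259, at 4325 bp), and Ifi207, an interferon-inducible gene (708, at 4416 bp), had peaks inside the gene. Slc30a4, a zinc transporter gene, had one peak 1782 bp upstream (614) and 2 near its end (451 and 274). Mettl21a, which methylates Hsp70 proteins, had a peak at 3377 bp (430), Dnajb5, a co-chaperone, at 4025 bp (394), and Plekhh2 at 1319 bp (317). Span starts also lay inside weaker peaks at Enkur (69.0), Srsf7, a splicing factor gene (67.2), Ogt, which attaches N-acetylglucosamine to proteins (64.0), Meaf6 (59.4), Ndufaf1, an assembly factor of respiratory complex I (54.0), and Rrp15, a ribosome biogenesis gene (52.4). A930033H14Rik held its start inside the peak (78.3) that overlapped the Rhobtb1 window. Cp had 3 peaks, at 115 and 1072 bp inside its span and 2708 bp upstream of it (64.3, 337 and 187), the first of which is the peak at the Cp window above.

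At gene ends the highest score belonged to Gorab, a Golgi protein gene (1396, 2130 bp past the end), followed by Slc25a24, a mitochondrial ATP-magnesium carrier (965, 3241 bp before the end). Gnas, the stimulatory G protein subunit (818, at 2250 bp), and Pik3r3, a regulatory subunit of phosphoinositide 3-kinase (765, at 1580 bp), also held peaks inside the gene. Past their ends lay the peaks of 2310022B05Rik (732, at 2343 bp), Mical3, a flavoprotein that oxidises actin (369, at 3589 bp), Pparg, the adipogenic nuclear receptor (355, at 3067 bp), Xcl1, a chemokine (329, at 4501 bp), and Zfp982 (286, at 2865 bp). A peak crossed the end of Tafa3 (375), and Slc4a10, a bicarbonate transporter, and Spata4 had peaks inside the gene at 1052 bp (321) and 267 bp (279). Of peaks without a known strand, the strongest contained an end of Zfp474 (1437), and the next was 1550 bp from an end of Itch, a ubiquitin ligase (1121).

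The run with the most peaks in the set stood at the end of Vmp1, which encodes a membrane protein of autophagy. It comprised 8 peaks in 4728 bp, from -3408 bp (inside the gene) to 1319 bp (past it) relative to its end, with scores of 54.0 to 282. The microRNA gene Mir21a (chr11:86584067-86584158, GRCm38.p6) lies within this run, 50 bp from the nearest of the peaks. Its mature products are shown because the run surrounds them, with the seed (bases 2 to 8) in capitals.
mmu-miR-21a-5p: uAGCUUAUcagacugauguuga
mmu-miR-21a-3p: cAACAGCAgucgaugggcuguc

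A ninth Vmp1 peak lay 511 bp from its start (55.2). Other genes with 3 or more peaks were Ankrd1, Ccn1, Ccn4, Cp, Hspb7 and Slc30a4, given above, with Ccnl1, Gm42346 and Gm52481. Gm42346, a predicted gene of unknown strand, had 4 (57.9 to 80.6). Ccnl1, a cyclin of RNA splicing, had 3 peaks from 3133 to 3430 bp into the gene (63.6 to 153.8). The predicted gene Gm52481 on chromosome Y had 4 (60.0 to 180.5), in a chromosome rich in repeated gene copies where single reads are hard to place, so this assignment is uncertain. In all, 40 neighbouring pairs of the 470 peaks were less than 1 kb apart, and 71 peaks belonged to such a pair.

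Assignment to a gene was not always unique. Of the 470 peaks 392 had a single protein-coding gene within 5 kb and 78 had several, up to 5. For 59 peaks both the start and the end of the same short gene were within 5 kb, as for Jun, whose end was 2941 bp away. Within 1 kb of several starts lay 9 peaks, among them those between Rhoa and Tcta and between H2ac8 and H2bc8. A peak near a gene does not show that the gene is regulated.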

How the data were processed

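The series holds 4 libraries, 1 per group, and the C2C12 MEF2A peak list was analysed. Per the submitters' processing notes, the tools were MACS 1.4.2, BWA 0.5.9, SAMtools, CASAVA 1.7.0 and Picard and the builds mm10 and rn5, without settings. Per the labels' protocols, fragments of 120 to 160 bp were selected on a gel. The authors deposited each peak's position and a score, with no header, summit, read count or IgG comparison, and the scale of the score is not stated. Starts in the file were taken to count from 0, and coordinates here count from 1. Sites too weak to be listed cannot be seen.

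Distances ran from the nearest edge of a peak to each end of a protein-coding span (RefSeq GRCm38.p6, the assembly behind mm10), and each peak took its nearest end. Strand came from the RefSeq promoter table, which held 17492 of 21887 genes. Whether a peak lay inside a gene was judged by its middle. Shares have exact (Clopper-Pearson) 95% intervals, and medians have binomial order-statistic ones, both for counting error only and with neighbouring peaks taken as independent. No test was made, since there is 1 library and peaks are not replicates. The distance and motif code was checked on simulated data.

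The peaks, the 17 gene lists (717 symbols, 714 distinct genes, 2 symbols found through a synonym and 1 not found) and the rules were chosen with earlier results of these data known. The text names the genes at the 20 strongest peaks nearest to a start and the 20 nearest to an end, list members with a peak, genes whose start lies inside a peak, and genes with 3 or more peaks. Zfp474, Itch, Capza2's pairing with Mtpn, Mir21a, and the genes of the closing section were chosen after their values were seen. Some list members are not reported here and were left out of the counts. Computation used scipy 1.17.1, pandas 2.3.3 and numpy 2.4.6 under Python 3.11.15, with figures by matplotlib 3.10.9.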

Additional observations from a re-analysis of the deposited data

How the results depend on the processing

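The counts followed the limits set on score and distance, by construction. Peaks at gene ends numbered 182 at a score of 100 or more and 79 at 200 or more, near 207 and 90 genes, with median scores of 189.2 and 369.0. Limits of 1, 2 and 10 kb gave 190, 271 and 748 peaks near 188, 271 and 840 genes. At 1 kb the share nearest to a start was 67.8% and the median score 73.3, both outside the intervals of the 5 kb values. In the other settings the share nearest to a start ran from 57.1% (10 kb) to 65.8%, the last with every start site of the promoter table in place of the end of the span, which gave 505 peaks. Distances from the middle of the peak, merging peaks under 1 kb apart and leaving out clone or predicted gene names gave 462, 430 and 449 peaks. Leaving out the Vmp1 run gave 462 peaks near 497 genes and 62.6% at a start. This last setting and the one with every start site were chosen after seeing the data. The share of promoter windows with a MEF2 consensus was 20.8% (10 of 48) when the middle of the peak had to lie in the window. Which weak peaks would recur cannot be seen from 1 library of unknown depth. No paired analysis was possible because there is 1 MEF2A library from C2C12 cells.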

Other observations

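A few further genes outside the lists are given here, picked with their values in view. Hsp90aa1, which encodes the inducible cytosolic chaperone Hsp90, lay 2981 bp from a peak of score 214.5. Hspa1b, an inducible Hsp70, had a weak peak 2151 bp upstream of its start (54.2). Histone genes of the cluster on chromosome 13 shared 2 peaks. One contained the opposite starts of H2ac8 and H2bc8 (235) with H2ac7, H2bc7 and H3c4 within 5 kb, and the other 157 bp from the start of H2bc3 (64.5) with H3c3 and H2ac4 nearby. H3f3b, which encodes the replacement histone H3.3, had 2 peaks (70.2 and 59.0), the weaker of which was nearer to the start of Unk (506 bp). Histone genes are near-identical copies, and their reads can be hard to tell apart, so these assignments are uncertain.

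Muscle genes outside the lists also had peaks at their starts. Trim72, encoding the membrane repair protein MG53, had a peak 228 bp into the gene (142.6). Mustn1, a small nuclear protein gene of muscle and skeleton, had one 1 bp from its start (116.5), Klhl31 one 250 bp into the gene (58.4), and Asb5 a pair at 1934 and 1701 bp upstream (64.3 and 62.8). Bin1, which shapes the T-tubule membrane, had a peak 3762 bp from an end of its span (98.8), with its strand not known here.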
